A study of Mus musculus with 40 samples.

Results

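The nuclear-encoded respiratory chain genes are the protein-coding genes whose symbols start with Nduf, Uqcr or Atp5, the Cox4 to Cox8 genes and Sdha to Sdhd, with pseudogenes left out. They were chosen by symbol and not by any measured value. The rule found 93 genes among the 40548 gene identifiers of the P0 count table, and the same 93 among the 41388 of the P14 table. Of these, 36 encode subunits of complex I and 8 its Ndufaf assembly factors. A further 4 belong to complex II, 8 to complex III, 19 to complex IV and 16 to complex V. Ndufa4, named after complex I, was counted with complex IV, where its protein sits. Ndufa4l2, its paralog, and Atp5s, which is no ATP synthase subunit, were kept apart.

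The respiratory chain sits in the inner mitochondrial membrane. Complexes I and II take electrons from NADH and succinate, complex III passes them to cytochrome c, complex IV passes them to oxygen, and complex V uses the proton gradient to make ATP. All complexes except II mix nuclear-encoded subunits with subunits encoded by mitochondrial DNA. Some complex IV subunits have tissue-restricted isoforms, among them the muscle isoforms Cox6a2, Cox7a1 and Cox8b, the testis isoform Cox6b2 and Cox4i2, which is best known from lung and from cells at low oxygen. Resting hematopoietic stem cells rely largely on glycolysis, and their progenitors use mitochondrial respiration more.

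The study sequenced RNA from mouse cells labelled as hematopoietic progenitors or multipotent progenitors. FLT3-ITD is an internal tandem duplication that activates the receptor FLT3. NUP98-HOXD13 (NHD13) is a leukemia fusion gene, and Runx1-HET is heterozygosity for the transcription factor gene Runx1. At P14, 14 days after birth, there were 6 groups, namely wild type, FLT3-ITD, NHD13, Runx1-HET, FLT3-ITD/NHD13 and FLT3-ITD/Runx1-HET. At P0, the day of birth, wild type, FLT3-ITD and FLT3-ITD/NHD13 were used. Each of the 9 groups had 4 libraries. The labels give no strain, allele dose, promoter or animal number. Whether libraries of 1 group stem from different animals is not stated, so every p-value here reflects library-to-library spread, which may be technical.

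The P14 libraries held 13.7 to 27.3 M counts and those of P0 17.3 to 39.3 M. Hoxd13 lay between 2.09 and 6 CPM (counts scaled to a common library size) in the NHD13 groups and at most at 0.0606 in all others. Runx1 was at 39.4 to 57.5 CPM in wild type at P14, 46.6 to 58.1 in Runx1-HET and 75.9 to 84.7 in FLT3-ITD/Runx1-HET, where it rose by 0.69 ± 0.13 on the log2 scale (adjusted p = 0.000196 in edgeR), and its level was not found lower in either heterozygous group. The labels do not say which exons the allele lacks, so this level does not check the label. The early progenitor markers Kit, Flt3, Cd34, Cd48, Ly6a, Slamf1 and Meis1 had counts in every group. Several of these 7 differed from wild type at P14 past the threshold used below (adjusted p under 0.05 in edgeR). Flt3 fell in all 5 mutant groups, by 0.90 on the log2 scale in FLT3-ITD, 0.43 in NHD13, 0.35 in Runx1-HET, 1.08 in FLT3-ITD/NHD13 and 1.19 in FLT3-ITD/Runx1-HET. Meis1 fell in NHD13 and the 3 FLT3-ITD groups, Cd34 in NHD13 and FLT3-ITD/NHD13, and Kit in both combined groups. Cd48 rose in Runx1-HET and the 3 FLT3-ITD groups, and Slamf1 in NHD13, Runx1-HET and FLT3-ITD/NHD13. Ly6a passed in none. More Y-linked than Xist counts were found in 4 of 4 FLT3-ITD libraries at each age, but in 1 of 4 wild-type libraries at P14 and 2 of 4 at P0.

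In wild type at P14 the level per length (RPKM over all annotated exons) ran over several orders of magnitude. Atp5a1, the catalytic-head alpha subunit of ATP synthase, was highest at 594 ± 17.1 (SD, n = 4). Cox4i1, the general isoform of complex IV subunit 4, followed at 527 ± 56.1 RPKM, and Ndufa4 at 494 ± 89.0. Ndufa4 overlapped both others across the 4 libraries, but the lowest Atp5a1 library lay just above the highest of Cox4i1. Sdhd, a membrane anchor of complex II, was at 373 ± 26.9 RPKM and Ndufc2, a small membrane-arm subunit of complex I, at 299 ± 25.2. The restricted isoforms were far lower. Cox6b2 stood at 36.8 ± 1.98 RPKM, Cox6a2 at 11.6 ± 2.20, Cox4i2 at 8.91 ± 2.61, Cox7a1 at 2.66 ± 0.64 and Cox8b at 1.05 ± 0.26. Their ubiquitous counterparts Cox6b1, Cox6a1, Cox4i1, Cox7a2 and Cox8a were at 312 ± 27.4, 269 ± 22.5, 527 ± 56.1, 154 ± 14.9 and 230 ± 17.0 RPKM, so each general isoform was well above its restricted partner. Cox7b2, Cox8c and Ndufa4l2 were too low to test at P14, as were Cox7b2, Cox8b and Cox8c at P0, which left 90 members in each fit.

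The 93 genes together took 1.87 to 2.02% of the counts of P14 wild-type libraries. The share was 1.96 to 2.18% in FLT3-ITD, 1.90 to 1.97% in NHD13, 1.92 to 2.09% in Runx1-HET, 2 to 2.13% in FLT3-ITD/NHD13 and 2.11 to 2.25% in FLT3-ITD/Runx1-HET. Only the last group had every library above every wild-type library. The sum of complex V was at 5930 to 6240 CPM in wild type. Every library of the 5 mutant groups lay above this range, the lowest at 6244 CPM in Runx1-HET and the highest at 7428 in FLT3-ITD. Complex I was at 5294 to 5998 CPM in wild type and at 6257 to 6746 in FLT3-ITD/Runx1-HET, without overlap. Complex III was at 1945 to 2187 CPM in wild type, 2207 to 2363 in FLT3-ITD/NHD13 and 2237 to 2306 in FLT3-ITD/Runx1-HET, again without overlap. The sums of complexes II and IV overlapped wild type in every P14 mutant group. These sums are descriptions, with no test.

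**Figure D1:**
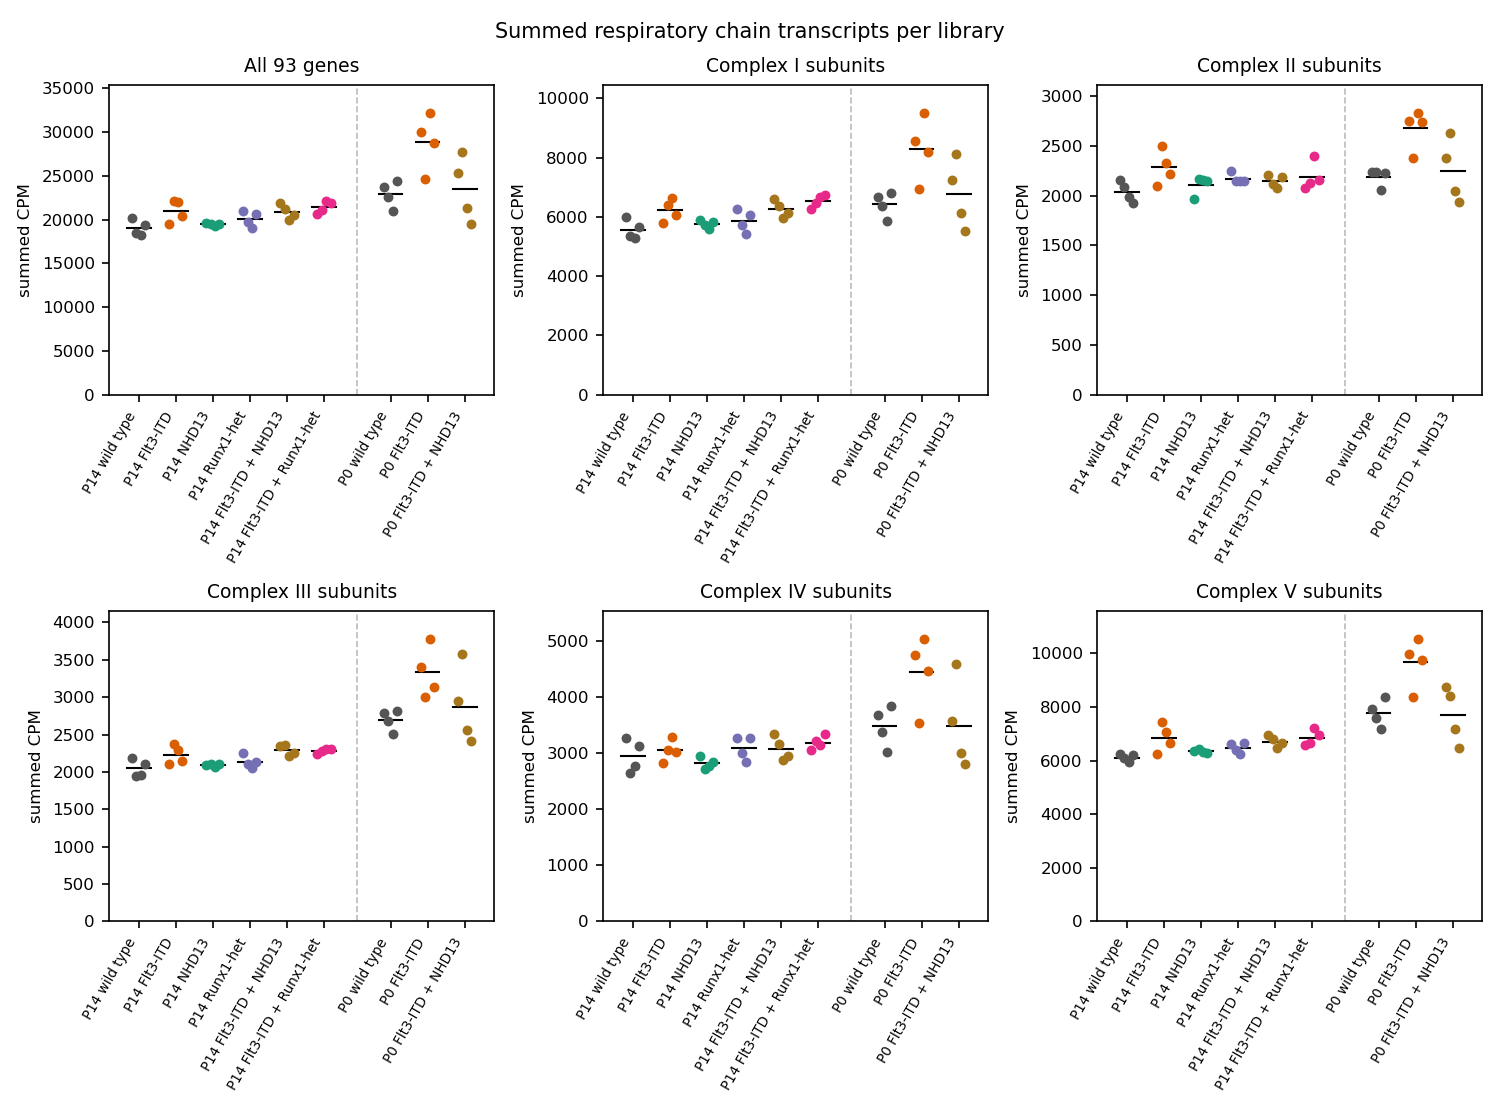
Summed CPM (y axis) of all 93 respiratory chain genes and of complexes I to V in each library (points) of the 9 groups (x axis), with the group mean as a black bar. In the panel of complex V the 4 wild-type libraries at P14 sit between 5930 and 6240 CPM, below every other P14 library, while the panels of complexes II and IV show overlapping groups.

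Against wild type at P14, 45, 21 and 7 of 90 respiratory chain genes passed as higher in FLT3-ITD/Runx1-HET, FLT3-ITD/NHD13 and FLT3-ITD. The shares of 50%, 23.3% and 7.78% stand beside 10.7%, 10.2% and 3.84% of all genes. The rises were small, with member medians of 0.24, 0.18 and 0.17 on the log2 scale. The last 2 groups thus had like medians, and the share of all genes differed between them too. A few complex IV genes fell. A gene passed at an adjusted p under 0.05 in edgeR's quasi-likelihood test, adjusted by Benjamini-Hochberg over all 14394 genes tested. The 5 comparisons share the same 4 wild-type libraries, so they are given side by side and not as independent results. In FLT3-ITD, 7 of 90 members passed as higher (7.78%) and 1 as lower (1.11%), where 3.84% of all genes passed as higher and 4.76% as lower (8.6% in either direction). The members' median log2 fold change was 0.17, beside -0.01 over all genes, and 81 of 90 were above 0. The count of 8 calls was 4 without wild-type library 3, 21 without wild-type library 1, 5 without FLT3-ITD library 2 or 4 and 4 without FLT3-ITD library 3. It was also 3 with a term for the sex of the libraries, 2 with only these 2 groups fitted and 5 without the filter on low counts. Wild-type library 1 had the highest levels of its group, with a median log2 ratio of the members to the wild-type mean of 0.14, against -0.08 to 0.04 in the others.

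In FLT3-ITD/NHD13, 21 of 90 members passed as higher (23.3%) and 1 as lower, where 10.2% of all genes passed as higher and 12.2% as lower (22.4% in either). The median was 0.18, beside 0.00 over all genes. The 22 calls became 14 without FLT3-ITD/NHD13 library 1 or wild-type library 3, and 38 without wild-type library 1. In FLT3-ITD/Runx1-HET, 45 of 90 passed as higher (50%) and 3 as lower (3.33%), where the shares of all genes were 10.7% and 12.0% (22.7% in either). The median was 0.24, beside -0.02, and 84 of 90 members were above 0. These 48 calls stayed between 32 and 50 when any 1 library was left out. The changes were small: the median of 0.24 is on the log2 scale.

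In the groups without FLT3-ITD few members passed. In NHD13, 1 of 90 passed as higher and 1 as lower, under the 7.12% and 8.75% of all genes that passed (15.9% in either). In Runx1-HET edgeR called 0 of 90, where 0.257% of all genes passed as higher and 0.521% as lower (0.778% in either). There, 6 of 90 members had an unadjusted p under 0.05, as did 1282 of all 14394 genes. DESeq2 called 0 members, and the members' median was 0.08.

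By complex, FLT3-ITD/Runx1-HET had 19 of 36 complex I genes higher, 3 of 8 assembly factors, 0 of 4 of complex II, 4 of 8 of complex III, 10 of 17 of complex IV and 9 of 16 of complex V. The 3 lower genes were all of complex IV. The medians were 0.24, 0.23, 0.11, 0.28, 0.30 and 0.29 in that order. FLT3-ITD/NHD13 had 9 genes of complex I, 1 assembly factor, 1 gene of complex II, 1 of complex III, 3 of complex IV and 6 of complex V higher, with medians of 0.18, 0.22, 0.06, 0.15, 0.18 and 0.22. FLT3-ITD had 3 genes of complex I, 0 assembly factors, 1 gene of complex II, 0 of complex III, 1 of complex IV and 2 of complex V higher, with medians of 0.16, 0.20, 0.16, 0.14, 0.17 and 0.20. Complex II, with 4 genes, thus had the lowest median in the combined groups. No test compared the complexes with each other.

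**Figure D2:**
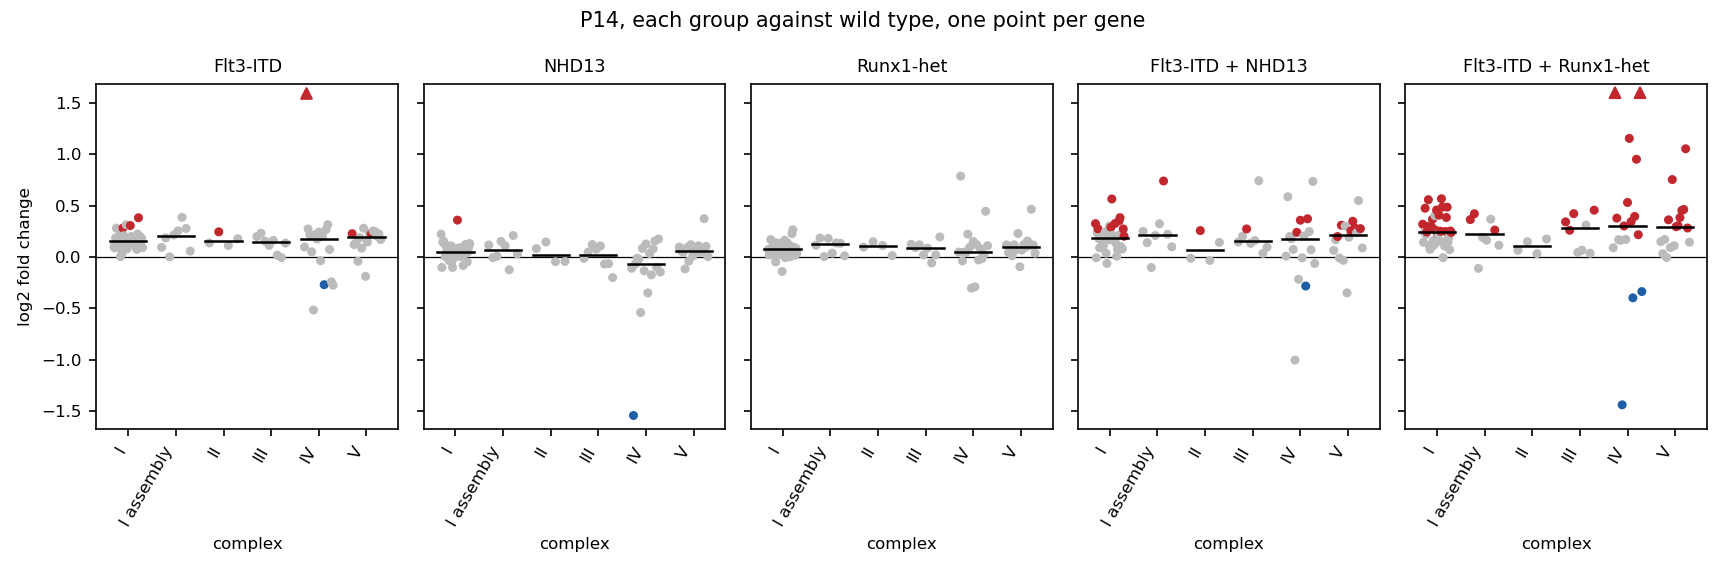
The log2 fold change against wild type at P14 (y axis) of each tested respiratory chain gene (points), sorted by complex (x axis), with 1 panel for each mutant group. Red points passed as higher, blue as lower, grey did not pass, black bars are medians and triangles mark values beyond 1.6 on either side; the panel of FLT3-ITD/Runx1-HET holds 45 red and 3 blue points and that of Runx1-HET none.

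Other cell types' markers and library traits also differed between the groups. The markers did so in NHD13 too. The sum of 12 erythroid markers, none at 0 in any group, was 4135 to 4805 CPM in wild type, 1549 to 1858 in FLT3-ITD, 1198 to 1385 in FLT3-ITD/NHD13 and 1274 to 1594 in FLT3-ITD/Runx1-HET, against 3035 to 3923 in NHD13 and 2898 to 4368 in Runx1-HET. Of 10 tested erythroid markers 2 passed as lower in FLT3-ITD, 2 in FLT3-ITD/NHD13 and 4 in FLT3-ITD/Runx1-HET, while 0, 4 and 1 passed as higher. In NHD13, 6 of the 10 passed as higher and 1 as lower. The sum of 9 granulocyte and monocyte markers, none at 0, was 823 to 1111 CPM in wild type, 1968 to 2483 in FLT3-ITD, 686 to 1351 in FLT3-ITD/NHD13 and 1062 to 3661 in FLT3-ITD/Runx1-HET. Of these 9, 6, 3 and 3 passed as higher and 0, 3 and 2 as lower. The 6 macrophage markers summed to 42.0 to 55.9 CPM in wild type and 114 to 176 in FLT3-ITD/Runx1-HET. The 12 cell cycle markers summed to 3683 to 4153 CPM in wild type, and 0, 2 and 1 of them passed as lower in the 3 FLT3-ITD groups. The 6 megakaryocyte markers summed to 78.1 to 102 CPM in wild type, 275 to 996 in NHD13 and 172 to 440.3 in FLT3-ITD/NHD13. In each of these mutant groups 4 of 5 tested passed as higher, while 1 passed as lower in FLT3-ITD and in FLT3-ITD/Runx1-HET. Of 4 tested T and NK cell markers 2, 3 and 2 passed as lower in the 3 FLT3-ITD groups, with medians of -1.21, -3.48 and -1.62, and 4 in NHD13. Of 5 B cell markers 1, 0 and 0 passed as higher and 0, 0 and 4 as lower, with medians of 1.95, 1.22 and -3.30. Of 5 mast cell, basophil and eosinophil markers 1, 2 and 1 were higher and 1, 1 and 2 lower. In bulk RNA, a change in the mix of cells and a change of RNA per cell cannot be told apart. The part of these markers in the results was not tested. The sex of the libraries entered only as a term in an alternative fit, and changes in calls with it are given with the comparisons concerned. Over all genes, the log2 fold change in FLT3-ITD/Runx1-HET also ran weakly against gene length, taken over all annotated exons. Spearman's rho was -0.16 across 14302 genes, which are not independent. The members' median length was 1631 bases, against 4075 for all genes. With a length offset in the fit, the median of the members in FLT3-ITD/Runx1-HET went from 0.24 to 0.16.

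Within complex I, Ndufb7 and Ndufs6 are described in full here, beside Atp5j of complex V, because these 3 passed as higher in each FLT3-ITD group at P14. Their promoter windows from RefSeq (GRCm38.p6), from 250 bases before to 50 after the annotated start, are printed 5′ to 3′ on the gene's strand. Capitals mark matches to CCGGAAG (an ETS-type core), to the palindromic NRF1 motif or to AAGATGGCG (YY1), searched on both strands. The Ndufb7 window is chr8:83566508-83566807 on the plus strand and holds 1 match, CCGGAAG. The Ndufs6 window is chr13:73328433-73328732 on the minus strand and holds 2 matches, to NRF1 and YY1. The Atp5j window is chr16:84834927-84835226 on the minus strand and holds 2, to YY1 and the ETS core. It lies inside the annotated gene, and the table's other Atp5j window, chr16:84835576-84835875 at the start of the gene span given below, holds 0.
Ndufb7: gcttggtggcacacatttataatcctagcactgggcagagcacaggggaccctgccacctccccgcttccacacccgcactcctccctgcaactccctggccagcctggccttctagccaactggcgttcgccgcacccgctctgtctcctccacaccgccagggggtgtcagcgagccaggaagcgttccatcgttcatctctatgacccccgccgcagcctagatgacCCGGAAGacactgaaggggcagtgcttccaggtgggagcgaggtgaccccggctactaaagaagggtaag
Ndufs6: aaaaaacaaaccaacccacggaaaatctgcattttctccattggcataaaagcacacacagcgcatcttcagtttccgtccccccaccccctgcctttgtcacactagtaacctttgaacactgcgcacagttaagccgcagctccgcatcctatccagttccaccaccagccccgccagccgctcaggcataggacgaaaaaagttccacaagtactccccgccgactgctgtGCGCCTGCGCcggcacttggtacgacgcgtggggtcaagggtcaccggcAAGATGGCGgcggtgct
Atp5j: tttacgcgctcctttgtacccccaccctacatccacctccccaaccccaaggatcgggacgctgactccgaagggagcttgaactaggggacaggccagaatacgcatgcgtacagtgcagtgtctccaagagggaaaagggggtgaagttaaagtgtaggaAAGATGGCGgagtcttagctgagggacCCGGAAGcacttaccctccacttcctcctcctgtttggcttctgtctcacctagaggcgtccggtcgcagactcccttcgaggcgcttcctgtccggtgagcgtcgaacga
Over the 75 members with a window in the table, 19 (25.3%) held the NRF1 motif, where 1402 of 27025 genes (5.19%) did. The ETS core was in 18 members (24.0%) and in 9.93% of all genes, and the YY1 letters in 8 (10.7%) and in 1.64%. In all, 38 of 75 members held at least 1 of the 3 motifs. A match is a description of the letters, not a bound site.

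Ndufb7 (ENSMUSG00000033938, GRCm38 chr8:83566671-83571626, plus strand) encodes an accessory subunit of the complex I membrane arm on its intermembrane-space side. Its levels were 194, 167, 168 and 171 CPM in wild type at P14, 194, 237, 229 and 206 in FLT3-ITD, 232, 209, 228 and 229 in NHD13, 209, 194, 176 and 205 in Runx1-HET, 281, 259, 241 and 255 in FLT3-ITD/NHD13 and 227, 232, 235 and 233 in FLT3-ITD/Runx1-HET. Library 1 was highest in wild type, and all libraries of NHD13 and of both combined groups lay above every wild-type library. Ndufb7 rose by 0.31 ± 0.07 (log2 fold change ± SE) in FLT3-ITD (adjusted p = 0.00736). The rise was 0.36 ± 0.07 in NHD13, 0.56 ± 0.07 in FLT3-ITD/NHD13 and 0.41 ± 0.07 in FLT3-ITD/Runx1-HET (adjusted p-values of 0.000731, 1.11e-06 and 0.000179). The FLT3-ITD call was lost at adjusted p 0.059 with only these 2 groups fitted. In Runx1-HET the value was 0.16 ± 0.07 (adjusted p = 0.505). It was the only one of the 90 members that passed as higher in NHD13, and the most significant member in FLT3-ITD/NHD13.

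Ndufs6 (ENSMUSG00000021606, chr13:73319838-73328542, minus strand) encodes a zinc-binding accessory subunit of the complex I peripheral arm. Its levels were 64.7, 64.1, 57.2 and 67.7 CPM in wild type, 73.0, 87.9, 88.1 and 81.7 in FLT3-ITD, 89.3, 86.8, 80.2 and 74.5 in FLT3-ITD/NHD13 and 80.5, 94.0, 90.6 and 89.8 in FLT3-ITD/Runx1-HET. Each of these 3 groups lay wholly above wild type, as did Runx1-HET. Ndufs6 rose by 0.38 ± 0.09 (adjusted p = 0.00584), 0.38 ± 0.09 (adjusted p = 0.00209) and 0.48 ± 0.09 (adjusted p = 0.000217), respectively. In NHD13 it ranged over 63.6 to 75.9 CPM and in Runx1-HET over 68.5 to 85.0, with log2 fold changes of 0.12 ± 0.09 (adjusted p = 0.434) and 0.27 ± 0.09 (adjusted p = 0.259). Its exons share 30 bases with those of Mrpl36, a mitochondrial ribosome gene that rose by 0.37 ± 0.09 in FLT3-ITD.

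Ndufa9 (chr6:126821721-126849136, minus strand), an accessory subunit near the ubiquinone site, had the most counts of the complex I genes. It measured 414, 379, 370.1 and 363 CPM in wild type, 429, 506, 485 and 435 in FLT3-ITD, 459, 434, 403 and 421 in FLT3-ITD/NHD13 and 422, 465, 507 and 474 in FLT3-ITD/Runx1-HET. FLT3-ITD and FLT3-ITD/Runx1-HET did not overlap wild type, and 1 FLT3-ITD/NHD13 library did. Ndufa9 rose by 0.28 ± 0.07 in FLT3-ITD (adjusted p = 0.0102) and 0.29 ± 0.07 in FLT3-ITD/Runx1-HET (adjusted p = 0.0034). The FLT3-ITD call was lost with a sex term (adjusted p = 0.0881) and with only the 2 groups fitted (adjusted p = 0.065). The value in FLT3-ITD/NHD13 was 0.17 ± 0.07 (adjusted p = 0.0888).

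The largest complex I changes in FLT3-ITD/Runx1-HET were in small accessory subunits. Ndufc1 (chr3:51404677-51408988), a membrane-arm subunit, measured 113, 102, 89.4 and 103 CPM in wild type and 152, 164, 132 and 155 in FLT3-ITD/Runx1-HET. It rose by 0.57 ± 0.10 (adjusted p = 0.000101), and every library lay above wild type. Ndufa5 (chr6:24518666-24528013), a subunit of the ubiquinone-binding module, went from 121, 101, 90.5 and 105 CPM to 154, 167, 133 and 161, also without overlap. It rose by 0.56 ± 0.10 (adjusted p = 0.000242). In FLT3-ITD/NHD13 the same genes gave 0.18 ± 0.10 (adjusted p = 0.209) and 0.19 ± 0.10 (adjusted p = 0.197). Ndufa1 (chrX:37187588-37191163), an X-linked membrane-arm subunit, measured 89.1, 83.7, 78.7 and 93.6 CPM in wild type and 112, 112, 103 and 105 in FLT3-ITD/NHD13, without overlap. It rose by 0.33 ± 0.09 there (adjusted p = 0.00556) and by 0.32 ± 0.09 in FLT3-ITD/Runx1-HET (adjusted p = 0.00727). With a length offset its adjusted p in FLT3-ITD/NHD13 was 0.0925. NHD13, at 95.7 to 107.7 CPM, and FLT3-ITD/Runx1-HET, at 100.9 to 118, also lay wholly above wild type. In NHD13 Ndufa1 did not pass.

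The complex I assembly factors were lower in abundance. Ndufaf7 (chr17:78937136-78948052), a methyltransferase that modifies a core subunit, had the most counts among them, at 83.1, 68.5, 73.0 and 66.1 CPM in wild type and 87.7, 79.9, 95.1 and 85.9 in FLT3-ITD/Runx1-HET. The groups overlapped at 1 wild-type library. It rose by 0.26 ± 0.09 in FLT3-ITD/Runx1-HET (adjusted p = 0.038), while FLT3-ITD gave 0.28 ± 0.09 (adjusted p = 0.0548) and FLT3-ITD/NHD13 0.22 ± 0.09 (adjusted p = 0.0828). Ndufaf6 (chr4:11051045-11076205), needed for early complex I assembly, measured 1.46, 2.66, 2.37 and 2.72 CPM in wild type, 2.66, 1.84, 2.32 and 1.57 in NHD13 and 3.95, 3.83, 3.30 and 4.25 in FLT3-ITD/NHD13. All FLT3-ITD/NHD13 libraries lay above both other groups. Ndufaf6 rose by 0.74 ± 0.24 against wild type (adjusted p = 0.025) and by 0.86 ± 0.24 against NHD13 (adjusted p = 0.0246). The latter call was lost at adjusted p 0.0548 to 0.103 without FLT3-ITD/NHD13 libraries 2 or 4 or NHD13 libraries 2 or 4, and at 0.0596 without the filter on low counts.

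Of the complex II genes only Sdhb passed against wild type. Sdhb (chr4:140961203-140979193), the iron-sulfur subunit, measured 403, 390.1, 360.2 and 392 CPM in wild type, 412, 508, 480.3 and 430.4 in FLT3-ITD, 490.3, 461, 435 and 461 in FLT3-ITD/NHD13 and 409, 408, 459 and 437 in FLT3-ITD/Runx1-HET. All 3 groups lay above wild type, FLT3-ITD/NHD13 by the widest gap. NHD13, at 417 to 440.5 CPM, and Runx1-HET, at 406 to 440.5, also lay wholly above wild type, but Sdhb passed in neither. Sdhb rose by 0.24 ± 0.07 in FLT3-ITD (adjusted p = 0.0194) and 0.26 ± 0.07 in FLT3-ITD/NHD13 (adjusted p = 0.00556), and gave 0.15 ± 0.07 in FLT3-ITD/Runx1-HET (adjusted p = 0.112). The FLT3-ITD call was lost at adjusted p 0.069 to 0.101 without FLT3-ITD libraries 2 or 3 or wild-type library 3. It was also lost without the filter, with only the 2 groups fitted and with a sex term, at adjusted p-values of 0.0571, 0.123 and 0.142. Sdha (chr13:74322254-74350280), the flavoprotein that oxidises succinate, ranged over 796 to 943 CPM in wild type and 883 to 1014 in FLT3-ITD/Runx1-HET, with a log2 fold change of 0.07 ± 0.07 (adjusted p = 0.547). Sdhc (chr1:171127165-171150603), a membrane anchor, ranged over 289 to 309 CPM in wild type and 278 to 343 in FLT3-ITD/Runx1-HET, where it gave 0.03 ± 0.07 (adjusted p = 0.772). Sdhd (chr9:50596357-50603812), the other anchor, ranged over 433 to 507 and 481 to 577 CPM in these groups, where it gave 0.17 ± 0.08 (adjusted p = 0.0974). None of Sdha, Sdhc and Sdhd passed against wild type in any P14 group.

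Complex III gave 4 calls in FLT3-ITD/Runx1-HET. Uqcrc1 (chr9:108936633-108949623), a core subunit and the complex III gene with the most counts, ranged over 727 to 817 CPM in wild type and 734 to 875 in FLT3-ITD/Runx1-HET. It gave 0.04 ± 0.08 there (adjusted p = 0.719). Uqcrq (chr11:53427922-53430831), a small subunit next to cytochrome b, measured 199, 181, 114 and 176 CPM in wild type and 227, 236, 224 and 232 in FLT3-ITD/Runx1-HET. Every FLT3-ITD/Runx1-HET library was above wild type, whose library 3 was lowest. Uqcrq rose by 0.46 ± 0.15 (adjusted p = 0.0298). The other 3 genes that rose, Uqcrb, Uqcr10 and Uqcr11, are also small subunits and are named after their values were seen, with log2 fold changes of 0.42, 0.34 and 0.26. Over 20% of the 50-base stretches of Uqcrb are shared with other genes (43.4%), so its counts are uncertain.

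Among the calls against wild type at P14, complex IV held both the largest rise and all of the falls. Cox4i2 (ENSMUSG00000009876, chr2:152754173-152765037, plus strand) encodes the restricted isoform of subunit 4. It measured 7.25, 4.14, 7.71 and 9 CPM in wild type at P14, 30.3, 51.1, 28.2 and 25.6 in FLT3-ITD, 2.66, 2.18, 2.62 and 2.08 in NHD13, 14.7, 6.77, 8.99 and 18.1 in Runx1-HET, 10.4, 12.2, 10.2 and 9.27 in FLT3-ITD/NHD13 and 41.1, 73.8, 109.8 and 80.2 in FLT3-ITD/Runx1-HET. All NHD13 libraries lay below wild type, and all FLT3-ITD, FLT3-ITD/NHD13 and FLT3-ITD/Runx1-HET libraries above it, while Runx1-HET overlapped wild type. Cox4i2 rose by 2.27 ± 0.31 in FLT3-ITD (adjusted p = 4.22e-05) and by 3.44 ± 0.32 in FLT3-ITD/Runx1-HET (adjusted p = 5.32e-08). It fell by 1.54 ± 0.35 in NHD13 (adjusted p = 0.00308). FLT3-ITD/NHD13 gave 0.59 ± 0.31 (adjusted p = 0.201) and Runx1-HET 0.79 ± 0.31 (adjusted p = 0.418). Its general partner Cox4i1 (chr8:120668222-120674207), with 701 to 884 CPM in wild type and 833 to 922 in FLT3-ITD/Runx1-HET, gave 0.10 ± 0.08 in FLT3-ITD (adjusted p = 0.531) and 0.09 ± 0.08 in FLT3-ITD/Runx1-HET (adjusted p = 0.435).

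The other restricted isoforms moved in different directions in FLT3-ITD/Runx1-HET. Cox6a2 (chr7:128205435-128206387) measured 8.51, 7.01, 6.29 and 9.62 CPM in wild type and 2.27, 5.70, 0.797 and 2.93 in FLT3-ITD/Runx1-HET. All libraries of the latter lay below wild type. It fell by 1.44 ± 0.38 there (adjusted p = 0.00765) and gave -1 ± 0.37 in FLT3-ITD/NHD13 (adjusted p = 0.0533). Its exons share 70 bases with those of Itgad, which gave -1.14 ± 0.48 in FLT3-ITD/Runx1-HET (adjusted p = 0.0859), so reads of these genes may be mixed. Cox7a1 (chr7:30184144-30186078) measured 1.91, 1.38, 1.29 and 1.12 CPM in wild type and 3.12, 5.09, 1.69 and 2.93 in FLT3-ITD/Runx1-HET, overlapping at library 3 of the latter. It rose by 1.16 ± 0.32 (adjusted p = 0.0102). Cox8b (chr7:140898945-140900446) measured 0.302, 0.511, 0.345 and 0.349 CPM and 1.18, 2.88, 0.498 and 1.41 in these groups, so the wild-type level is close to that of 3 counts in a library (0.133 to 0.218 CPM). It rose by 1.95 ± 0.52 (adjusted p = 0.00744), with an overlap at library 3. Cox6b2 (chr7:4751792-4753094) measured 39.1, 41.1, 39.2 and 43.8 CPM in wild type, 33.7, 33.6, 30.8 and 34.0 in Runx1-HET and 46.0, 42.9, 46.1 and 48.6 in FLT3-ITD/Runx1-HET. All Runx1-HET libraries were below wild type, but the change of -0.30 ± 0.10 did not pass (adjusted p = 0.215). Ndufa4l2 was at 0 in all FLT3-ITD/NHD13 libraries and at most at 0.156 CPM in any P14 library.

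**Figure D3:**
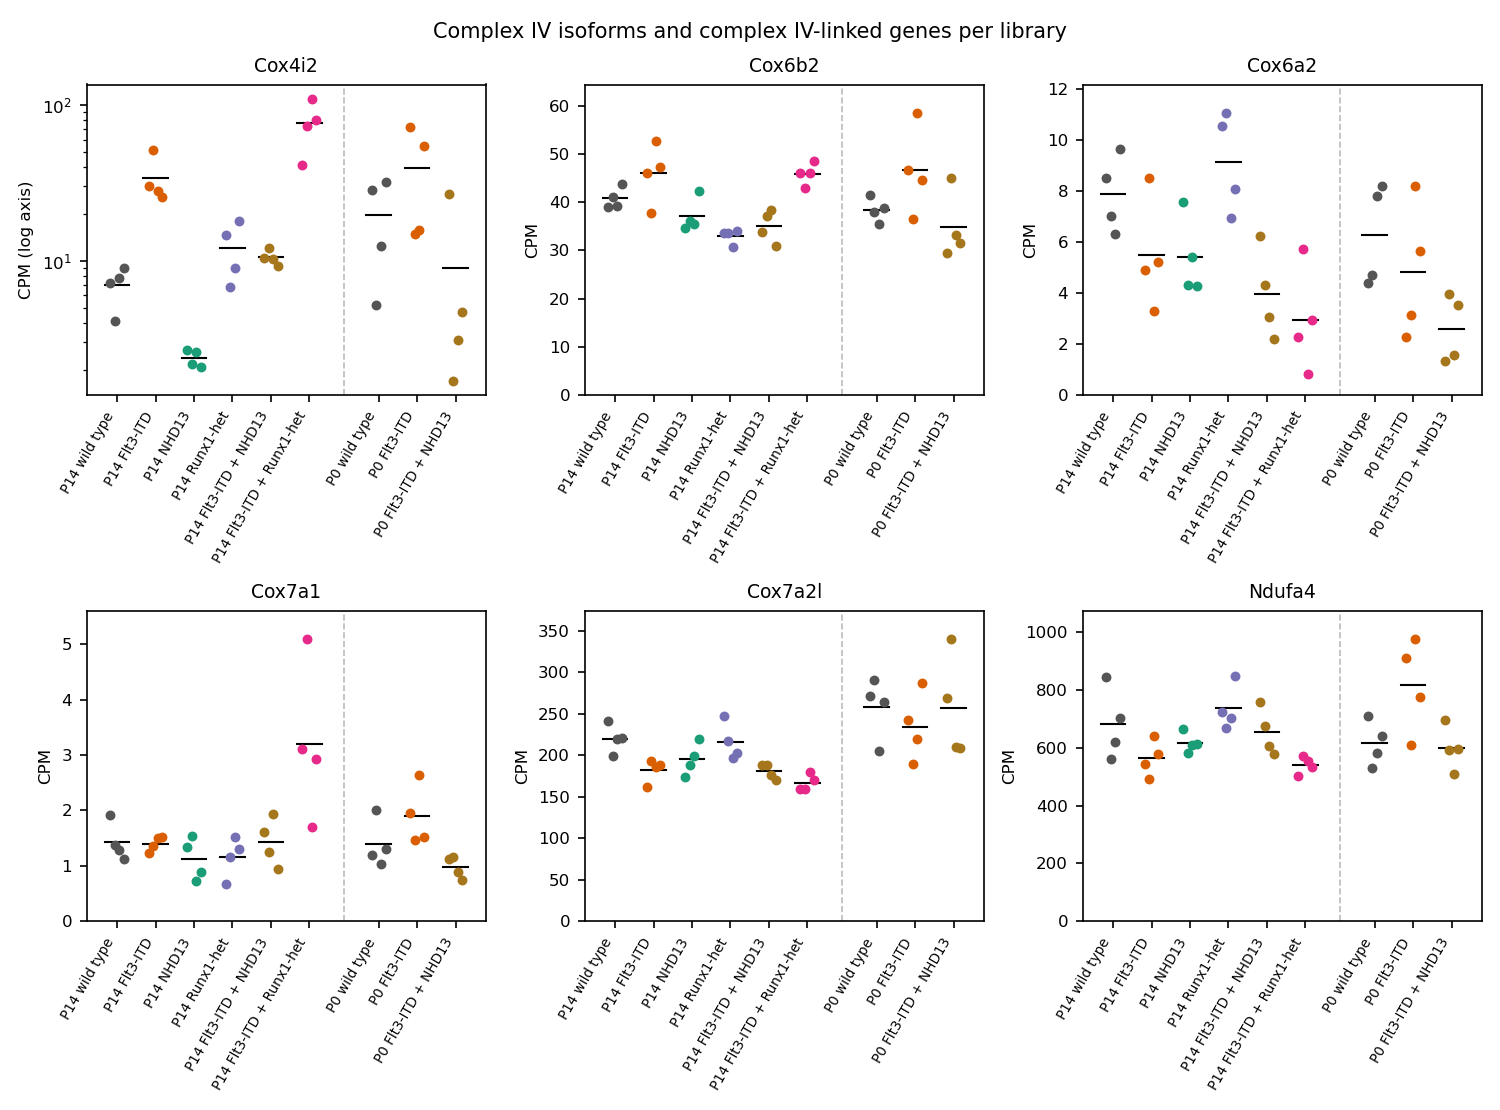
CPM (y axis, logarithmic for Cox4i2) of 6 complex IV genes in each library (points) of the 9 groups (x axis), with the group mean as a black bar. The Cox4i2 panel shows NHD13 at 2.08 to 2.66 CPM, below wild type, and FLT3-ITD/Runx1-HET at 41.1 to 109.8 CPM.

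Among the general complex IV genes, Cox7a2l (chr17:83501918-83517330), whose product ties complexes III and IV into supercomplexes, measured 242, 199, 219 and 221 CPM in wild type, 162, 193, 186 and 189 in FLT3-ITD, 189, 188, 176 and 171 in FLT3-ITD/NHD13 and 159, 160.0, 179 and 169.8 in FLT3-ITD/Runx1-HET. All libraries of the 3 FLT3-ITD groups lay below wild type. In that order the log2 level fell by 0.27 ± 0.08, 0.28 ± 0.08 and 0.40 ± 0.08, with adjusted p-values of 0.0406, 0.0136 and 0.00087. In FLT3-ITD the call was lost at adjusted p 0.059 to 0.144 without FLT3-ITD libraries 1, 3 or 4 or wild-type libraries 1, 3 or 4. It was also lost with RLE scaling, with only the 2 groups fitted and with a sex term, at adjusted p-values of 0.0507, 0.109 and 0.13. Ndufa4 (chr6:11900292-11907497) measured 846, 563, 621 and 702 CPM in wild type, with library 1 far above the others, and 503, 571, 554 and 535 in FLT3-ITD/Runx1-HET. The groups overlapped at the lowest wild-type library. Ndufa4 fell by 0.34 ± 0.10 (adjusted p = 0.0195), a call lost at adjusted p 0.0504 to 0.0998 without FLT3-ITD/Runx1-HET library 1 or wild-type libraries 1 or 4, and at 0.0598 with only the 2 groups fitted. Cox7b (chrX:106015700-106022450), an X-linked subunit of the complex, measured 179.6, 142, 128 and 148 CPM in wild type and 220.2, 197, 176 and 181 in FLT3-ITD/NHD13. Wild-type library 1 overlapped that group. Cox7b rose by 0.37 ± 0.10 there (adjusted p = 0.00586) and by 0.40 ± 0.10 in FLT3-ITD/Runx1-HET (adjusted p = 0.00404). Cox5a, which binds the matrix side of the complex, measured 90.4, 110.1, 105 and 134 CPM in wild type and 139, 138, 137 and 158 in FLT3-ITD/Runx1-HET, without overlap. It rose by 0.38 ± 0.12 (adjusted p = 0.019). Other genes share 32% of its 50-base stretches, and Gm26631 shares 269 of its exon bases, so its counts are uncertain.

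In complex V, Atp5j (ENSMUSG00000022890, chr16:84827866-84835625, minus strand) encodes a peripheral-stalk subunit, coupling factor 6 by name. It measured 249.5, 223, 218 and 247 CPM in wild type, 262, 266, 294 and 276 in FLT3-ITD, 311, 305, 291 and 287 in FLT3-ITD/NHD13 and 304, 312, 289.7 and 318 in FLT3-ITD/Runx1-HET. All libraries of the 3 groups lay above wild type. It rose by 0.23 ± 0.07 (adjusted p = 0.0424), 0.35 ± 0.07 (adjusted p = 0.00046) and 0.38 ± 0.07 (adjusted p = 0.000198), respectively. It shares 397 exon bases with Gabpa, which encodes an ETS-family regulator of mitochondrial genes and gave -0.04, -0.01 and -0.10 in the same comparisons, none past the test. Atp5a1, the alpha subunit and the complex V gene with the most counts, measured 1855, 1933, 1861 and 1802 CPM in wild type and 1926, 2516, 2150.0 and 2129.5 in FLT3-ITD. FLT3-ITD library 1 overlapped wild type. Atp5a1 rose by 0.23 ± 0.07 (adjusted p = 0.0389), but the call was lost at adjusted p 0.0593 to 0.198 without FLT3-ITD libraries 2, 3 or 4 or wild-type libraries 3 or 4. It was also lost with total-count scaling, without the filter, with only the 2 groups fitted and with a sex term, at adjusted p-values of 0.0515, 0.0674, 0.178 and 0.257. Atp5mpl, a small membrane subunit (chr12:111961375-111966977), measured 112, 97.5, 90.7 and 103 CPM in wild type and 139, 125, 115 and 110.2 in FLT3-ITD/NHD13. Wild-type library 1 lay above 1 library of that group. It rose by 0.28 ± 0.09 there (adjusted p = 0.0303) and by 0.28 ± 0.09 in FLT3-ITD/Runx1-HET (adjusted p = 0.0272). Ndufa9, Cox4i1 and Atp5a1 share 67, 154 and 129 exon bases with 1700018A23Rik, Emc8 and Haus1. Some small increases rest on genes that share sequence, so the 53 tested members with at most 20% shared 50-base stretches and no exon overlap were counted alone. Of these, 3, 13 and 27 were higher and 1, 1 and 2 lower in FLT3-ITD, FLT3-ITD/NHD13 and FLT3-ITD/Runx1-HET. The higher shares of 5.66%, 24.5% and 50.9% stand beside 3.84%, 10.2% and 10.7% of all genes, so the first was near that of all genes. The lower shares of 1.89%, 1.89% and 3.77% stand beside 4.76%, 12.2% and 12.0%.

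The mutant groups were also compared with each other, to see what each mutation went with on the background of the other. Against FLT3-ITD, FLT3-ITD/Runx1-HET had 6 of 90 members higher and 0 lower, where 3.31% of all genes passed as higher and 3.9% as lower (7.2% in either). Cox4i2 rose by 1.17 ± 0.29 (adjusted p = 0.0138), which was lost at adjusted p 0.108 with only the 2 groups fitted. Cox8b rose by 2.19 ± 0.53 (adjusted p = 0.00916), which was lost at adjusted p 0.0784 without FLT3-ITD/Runx1-HET library 2. Ndufc1 rose by 0.40 ± 0.10 (adjusted p = 0.00979). The other 3, named after their values were seen, were Cox7a1, Ndufc2 and Ndufa5, at 1.19, 0.31 and 0.34. The 6 calls became 3 without FLT3-ITD library 1 or 2 or FLT3-ITD/Runx1-HET library 2, and 11 without FLT3-ITD/Runx1-HET library 3. They were 3 with a sex term. In the same comparison 4 of 5 B cell, 3 of 9 granulocyte and monocyte and 3 of 10 erythroid markers passed as lower and 1 erythroid marker as higher, and their part was not tested.

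Against Runx1-HET, FLT3-ITD/Runx1-HET had 24 of 90 higher and 3 lower, where 6.69% and 8.18% of all genes passed (14.9% in either). Cox4i2 rose by 2.66 ± 0.31 (adjusted p = 1.45e-06), Cox6b2 by 0.47 ± 0.10 (adjusted p = 0.000959) and Cox7a1 by 1.45 ± 0.33 (adjusted p = 0.00245). Cox7a2l fell by 0.37 ± 0.08 (adjusted p = 0.00238), Cox6a2 by 1.66 ± 0.38 (adjusted p = 0.00314) and Ndufa4 by 0.45 ± 0.10 (adjusted p = 0.00317). The 27 calls became 13 without Runx1-HET library 3 and 16 without FLT3-ITD/Runx1-HET library 2. By complex, 9 of 36 genes of complex I, 9 of 17 of complex IV and 4 of 16 of complex V were higher. All 3 genes that fell were again of complex IV. Here 5 of 5 B cell and 4 of 10 erythroid markers passed as lower.

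Against FLT3-ITD, FLT3-ITD/NHD13 had 1 of 90 members higher and 2 lower, where 6.35% and 7.18% of all genes passed (13.5% in either). Ndufb7 rose by 0.26 ± 0.07 (adjusted p = 0.0157), a call lost at adjusted p 0.055 to 0.0795 without FLT3-ITD libraries 1 or 4 or FLT3-ITD/NHD13 library 1. Cox4i2 fell by 1.69 ± 0.30 (adjusted p = 0.000338) and Cox6b2 by 0.39 ± 0.10 (adjusted p = 0.00619). In this comparison 5 of 10 erythroid and 5 of 5 megakaryocyte markers passed as higher and 6 of 9 granulocyte and monocyte markers as lower, and their part was not tested. Against NHD13 it had 3 higher and 0 lower, where 2.65% and 3.58% of all genes passed (6.24% in either). Cox4i2 rose by 2.13 ± 0.34 (adjusted p = 0.000329), beside Ndufaf6 above. Atp5j rose by 0.24 ± 0.07 (adjusted p = 0.0375), a call lost at adjusted p 0.0614 to 0.161 without FLT3-ITD/NHD13 libraries 1, 2 or 3 or NHD13 libraries 2, 3 or 4. It was also lost with only the 2 groups fitted, with a length offset and without the filter, at adjusted p-values of 0.0651, 0.0836 and 0.0893. The 3 calls became 1 without FLT3-ITD/NHD13 library 2 or NHD13 library 2 or 4, and 1 without the filter. Here 5 of 10 erythroid and 3 of 5 megakaryocyte markers passed as lower.

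Compared directly, NHD13 had 0 members higher and 8 lower than FLT3-ITD, where 9.21% and 9.23% of all genes passed (18.4% in either). Cox4i2 was lower by -3.82 on the log2 scale (SE 0.34, adjusted p = 2.29e-08). Ndufa9 fell by 0.25 ± 0.07 (adjusted p = 0.013), lost at adjusted p 0.0533 to 0.0679 without FLT3-ITD library 2 or NHD13 library 3. Ndufs8 (chr19:3908863-3912774), a core subunit that carries iron-sulfur clusters, ranged over 262 to 272 CPM in NHD13 and 279.7 to 342 in FLT3-ITD, without overlap. It fell by 0.25 ± 0.08 (adjusted p = 0.0216), lost at adjusted p 0.0511 to 0.0863 without FLT3-ITD libraries 2 or 3 or NHD13 libraries 1 or 4, and at 0.0949 with a length offset. The 8 calls ranged from 2, without FLT3-ITD library 3 or NHD13 library 3, to 13, without FLT3-ITD library 1. They were 3 without FLT3-ITD library 2, 4 without NHD13 library 1 or 2 and 5 without FLT3-ITD library 4 or NHD13 library 4, and also 4 without the filter and 3 with a length offset. In this comparison 7 of 10 erythroid and 5 of 5 megakaryocyte markers passed as higher and 6 of 9 granulocyte and monocyte markers as lower, with medians of 2.07, 3.55 and -1.44, and their part was not tested.

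FLT3-ITD/NHD13 had 0 members higher and 6 lower than FLT3-ITD/Runx1-HET, where 10.5% and 10% of all genes passed (20.5% in either). Cox4i2 fell by 2.86 ± 0.31 (adjusted p = 3.64e-07), Ndufc1 by 0.39 ± 0.10 (adjusted p = 0.00472) and Cox6b2 by 0.39 ± 0.10 (adjusted p = 0.00473). The 6 calls became 13 without FLT3-ITD/NHD13 library 1, 3 without FLT3-ITD/Runx1-HET library 2 and 10 with total-count scaling. Here 5 of 5 megakaryocyte, 5 of 5 B cell and 5 of 10 erythroid markers passed as higher and 5 of 9 granulocyte and monocyte markers as lower. The interaction terms asked whether the effects of 2 mutations add on the log2 scale. For FLT3-ITD with NHD13, edgeR called 0 of 90 members and DESeq2 0. Of all genes 0.257% and 0.278% passed in edgeR as positive and negative (0.535% in either). An unadjusted p under 0.05 was found for 4 of 90 members and for 1289 of all 14394 genes. For FLT3-ITD with Runx1-HET, edgeR called 0 members and DESeq2 0, where 0.646% and 1.04% of all genes passed in edgeR (1.68% in either). An unadjusted p under 0.05 was found there for 6 of 90 members and for 1634 of all 14394 genes. For Cox4i2 the interaction values were -0.14 ± 0.47 (adjusted p = 0.976) and 0.38 ± 0.42 (adjusted p = 0.81).

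At P0, 85 of 90 members had a log2 fold change above 0 in FLT3-ITD against wild type, and edgeR called none of them. The members' share of all counts was 2.15 to 2.52% in wild type, 2.47 to 3.04% in FLT3-ITD and 2.06 to 2.63% in FLT3-ITD/NHD13. For FLT3-ITD against wild type edgeR called 0 of 90 among 14359 genes, where 0.00696% of all genes passed in each direction (0.0139% in either, 2 genes in all). DESeq2 called 1 member. In edgeR, 48 of 90 members had an unadjusted p under 0.05, where 1469 of all 14359 genes did. The median log2 fold change was 0.37, beside -0.02 over all genes, and it was 0.38 for complex I, 0.34 for complex III, 0.43 for complex IV and 0.40 for complex V. The spread between libraries was wider than at P14, with a biological coefficient of variation of 0.301 against 0.164. The median log2 ratio to the wild-type mean was 0.44, 0.11, 0.59 and 0.36 in the 4 FLT3-ITD libraries, so library 2 was close to wild type, at -0.14 to 0.10. Over all genes the log2 fold change ran against length (Spearman rho of -0.26 across 14340 genes). The 12 erythroid markers summed to 2423 to 3205 CPM in wild type and 1827 to 1997 in FLT3-ITD, with 0 of 11 tested past the threshold. The 3 hepatocyte markers summed to 7.11 to 363 CPM in wild type and 2 to 6.53 in FLT3-ITD, with 0 of 3 past it. An unadjusted p under 0.05 was found for 6 of 11 erythroid and 3 of 3 hepatocyte markers. Their median log2 fold changes were -2.444 and -4.343, and DESeq2 called 1 and 2 as lower. Of 5 B cell markers 4 had an unadjusted p under 0.05, at a median of 1.601. EdgeR called 0 of these 5 and DESeq2 2 as higher. Of 9 granulocyte and monocyte markers 0 had an unadjusted p under 0.05. Their part in the result was not tested.

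The P0 table names 8 columns for FLT3-ITD/NHD13 and none for NHD13, while the labels give 4 samples of each. The 4 columns that match labelled FLT3-ITD/NHD13 samples by name and number were used. Whether all columns bear the right name was not tested. Hoxd13 was at least at 3.35 CPM in these 4 libraries and at most at 0.0606 in wild type and FLT3-ITD at P0. Flt3 measured 285, 786, 532 and 511 CPM in the 4 libraries. It ranged over 721 to 1202 CPM in wild type and 380 to 563 in FLT3-ITD at P0. Library 2 thus lay within the wild-type range of Flt3 and above every FLT3-ITD library. The cause was not tested. Against wild type at P0, FLT3-ITD/NHD13 gave 0 calls of 90 by edgeR and 0 by DESeq2. Of all genes 1.11% passed in edgeR as higher and 0.975% as lower (2.08% in either). An unadjusted p under 0.05 was found for 1 of 90 members and for 1615 of all 14359 genes. The members' median was 0.02. Against FLT3-ITD at the same age, 0 were higher and 3 lower in FLT3-ITD/NHD13, where 1.74% and 1.14% of all genes passed (2.88% in either). The median was -0.34, beside 0.03 over all genes, and 5 of 90 members were above 0. In the same comparison 3 of 9 granulocyte and monocyte markers passed as lower, with sums of 1696 to 2485 CPM in FLT3-ITD and 583 to 1418 in FLT3-ITD/NHD13. Also lower were 3 of 4 T and NK cell, 1 of 5 B cell and 2 of 12 cell cycle markers, and higher were 1 of 5 megakaryocyte and 1 of 11 erythroid markers. Their part in the result was not tested. Uqcrq measured 229, 207, 238 and 194 CPM in wild type, 291, 272, 514 and 325 in FLT3-ITD and 195, 205, 214 and 207 in FLT3-ITD/NHD13. FLT3-ITD lay above both, with library 3 highest. Uqcrq was -0.77 on the log2 scale against FLT3-ITD (SE 0.17, adjusted p = 0.0247), lost at adjusted p 0.0503 to 0.0588 without FLT3-ITD library 3 or FLT3-ITD/NHD13 libraries 1, 3 or 4. Cox5a measured 245, 232, 266 and 203 CPM in FLT3-ITD and 179, 163, 162 and 122 in FLT3-ITD/NHD13, without overlap. It fell by 0.60 ± 0.14 (adjusted p = 0.037), lost at adjusted p 0.0593 to 0.13 without FLT3-ITD libraries 1, 2 or 3 or FLT3-ITD/NHD13 libraries 3 or 4. Atp5mpl measured 185, 126, 214 and 159.7 and 129, 89.9, 102 and 99.96 CPM in these groups, which overlapped at FLT3-ITD library 2. It fell by 0.70 ± 0.17 (adjusted p = 0.0373), lost at adjusted p 0.0603 to 0.141 without FLT3-ITD libraries 1, 3 or 4 or FLT3-ITD/NHD13 libraries 2, 3 or 4. The 3 calls became 0 without FLT3-ITD library 3 or FLT3-ITD/NHD13 library 3 or 4, 1 without FLT3-ITD library 1, 10 without FLT3-ITD library 2 or FLT3-ITD/NHD13 library 1 and 13 without FLT3-ITD/NHD13 library 2. DESeq2 called 13 as lower. With only the 2 groups fitted Uqcrq, Cox5a and Atp5mpl had adjusted p-values of 0.0651, 0.0806 and 0.086, and with a sex term 0.0662, 0.0508 and 0.093. Atp5mpl had 0.0631 with a length offset. The reservation on Cox5a counts holds here too.

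**Figure D4:**
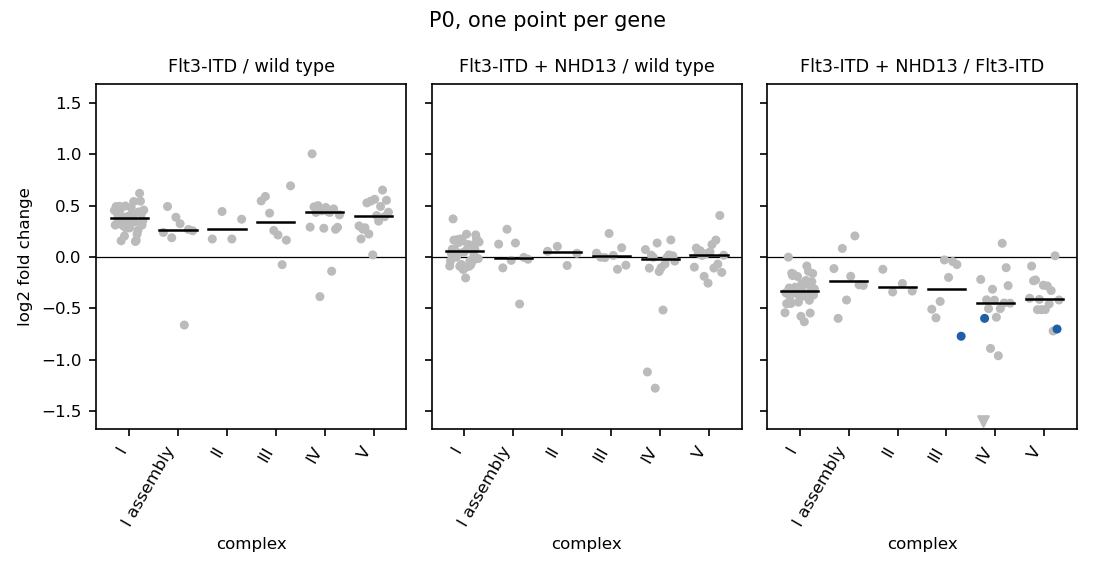
The log2 fold change at P0 (y axis) of each tested respiratory chain gene (points), by complex (x axis), for FLT3-ITD against wild type, FLT3-ITD/NHD13 against wild type and FLT3-ITD/NHD13 against FLT3-ITD. Blue points passed as lower, grey did not pass, triangles lie beyond the axis and black bars are medians; the members' median is 0.37 in the first comparison and -0.34 in the last, where 3 points are blue.

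Cox4i2 was far more variable at P0. It measured 28.4, 5.20, 12.5 and 32.3 CPM in wild type, 71.9, 14.8, 15.7 and 54.7 in FLT3-ITD and 26.7, 1.70, 3.11 and 4.68 in FLT3-ITD/NHD13. The 3 groups overlapped. The log2 fold change was 1 ± 0.89 in FLT3-ITD (adjusted p = 0.745) and -1.12 ± 0.90 in FLT3-ITD/NHD13 (adjusted p = 0.749). Ndufb7, at 199.6 to 259 CPM in wild type, 242 to 376 in FLT3-ITD and 188 to 355 in FLT3-ITD/NHD13, gave 0.48 ± 0.18 (adjusted p = 0.384) and 0.22 ± 0.18 (adjusted p = 0.75). Ndufa4l2 measured 0.566, 0.532, 0 and 0.0303 CPM in wild type, 0.104, 0, 0 and 0.0728 in FLT3-ITD and 0.584, 0.852, 0.629 and 0.335 in FLT3-ITD/NHD13, where 3 counts in a library correspond to 0.0763 to 0.173 CPM. No Ndufa4l2 comparison passed.

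The age difference of each effect was tested in a fit of both ages, with each age's wild type as reference. The labels do not separate age from sequencing run. For the FLT3-ITD effect edgeR called 0 of 91 members and DESeq2 1. Of all genes 0.1% and 0.0934% passed in edgeR as higher and lower at P14 (0.194% in either). An unadjusted p under 0.05 was found for 13 of 91 members and for 1142 of all 14984 genes. The members' median difference was -0.20. For the FLT3-ITD/NHD13 effect edgeR called 0 members and DESeq2 1, where 1.37% and 2.54% of all genes passed in edgeR (3.91% in either). An unadjusted p under 0.05 was found there for 11 of 91 members and for 2511 of all 14984 genes. The median difference was 0.16, and the member nearest the threshold was Atp5j, at 0.48 ± 0.14 (adjusted p = 0.0511). Without P0 FLT3-ITD/NHD13 library 1, edgeR called 5 members for the latter, and without P0 FLT3-ITD library 2 it called 1 for the former.

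Related gene lists were counted in the same fits. Of 75 tested genes of the mitochondrial ribosome, which makes the subunits encoded by mitochondrial DNA, 7 were higher and 1 lower in FLT3-ITD, 18 and 0 in FLT3-ITD/NHD13, 18 and 0 in FLT3-ITD/Runx1-HET and 2 and 1 in NHD13. Mrpl35, of its large subunit, rose by 0.43 in FLT3-ITD/NHD13 (adjusted p = 2.7e-05), and its rise in FLT3-ITD/Runx1-HET was 0.34. The higher shares of 9.33%, 24% and 24% in the 3 FLT3-ITD groups stand beside the 3.84%, 10.2% and 10.7% of all genes. The 8 calls in FLT3-ITD were 14 with DESeq2, 4 without the filter, 2 with only the 2 groups fitted and 1 with a sex term. Of 40 tested assembly factors of complexes II to V, 1, 2 and 4 were higher in the 3 FLT3-ITD groups and 0 lower. These shares of 2.5%, 5% and 10% stand beside 3.84%, 10.2% and 10.7% of all genes, so the last was near that of all genes. The list's median log2 fold changes were 0.08, 0.11 and 0.09, beside -0.01, 0.00 and -0.02 over all genes. Taco1, which activates translation of a complex IV subunit, rose by 0.44 ± 0.14 in FLT3-ITD (adjusted p = 0.0436). Of 18 tricarboxylic acid cycle genes 1, 0 and 3 were higher and 0 lower. Fh1, which encodes fumarate hydratase, rose by 0.43 ± 0.08 in FLT3-ITD (adjusted p = 0.00111). Of 16 genes for electron carriers and ubiquinone synthesis 0, 1 and 2 were higher and 0, 1 and 2 lower. The higher shares were 5.56%, 0% and 16.7% for the former list and 0%, 6.25% and 12.5% for the latter, and with so few genes they are not read against those of all genes. In Runx1-HET edgeR and DESeq2 called 0 genes of each of these lists.

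Glycolysis genes went both ways. Of 22 tested, 2 were higher and 2 lower in FLT3-ITD, 2 and 3 in FLT3-ITD/NHD13, 6 and 3 in FLT3-ITD/Runx1-HET and 0 and 3 in NHD13. The higher shares of 9.09%, 9.09% and 27.3% in the 3 FLT3-ITD groups stand beside 3.84%, 10.2% and 10.7% of all genes. Slc2a3, a glucose transporter gene, fell by 0.85 ± 0.14 in FLT3-ITD, by 1.07 in FLT3-ITD/NHD13 and by 1.06 in FLT3-ITD/Runx1-HET (adjusted p-values of 0.000107, 9.75e-07 and 1.58e-06). Ldhb, a lactate dehydrogenase subunit gene, fell by 0.39, 0.49 and 0.85 in these groups. Aldoc, an aldolase gene, rose by 0.95 in FLT3-ITD/Runx1-HET and fell by 0.72 in NHD13. Of 18 regulators of mitochondrial biogenesis, 2, 2 and 1 were higher and 0, 2 and 3 lower in the 3 FLT3-ITD groups, at higher shares of 11.1%, 11.1% and 5.56%. Mycn, a MYC-family transcription factor gene, rose by 0.60 ± 0.17 in FLT3-ITD (adjusted p = 0.0284), 1.03 in FLT3-ITD/NHD13 (adjusted p = 5.7e-05) and 0.82 in FLT3-ITD/Runx1-HET (adjusted p = 0.00102). Sirt3, a mitochondrial deacetylase gene, fell by 0.56 in FLT3-ITD/NHD13 and 0.33 in FLT3-ITD/Runx1-HET.

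Of the 13 protein-coding genes of mitochondrial DNA, 10 had counts at P14 and 7 were tested, and 3 were listed at 0 in every library. Of the 7, edgeR called 0 in FLT3-ITD and 0 in FLT3-ITD/NHD13. An unadjusted p under 0.05 was found for 2 and 0 of the 7, and for 3057 and 4776 of all 14394 genes. In FLT3-ITD/Runx1-HET 1 of the 7 passed as higher. It was mt-Nd2, a core complex I subunit gene, at 429, 316, 233 and 208 CPM in wild type and 410.0, 493, 459 and 496 in FLT3-ITD/Runx1-HET. Wild-type library 1 overlapped that group. mt-Nd2 rose by 0.65 ± 0.22 (adjusted p = 0.0437). None of the 7 passed there without the filter, with a sex term or with a length offset, and 2 did with DESeq2. The median log2 fold change of the 7 was 0.30 in FLT3-ITD, 0.14 in FLT3-ITD/NHD13 and 0.43 in FLT3-ITD/Runx1-HET.

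**Figure D5:**
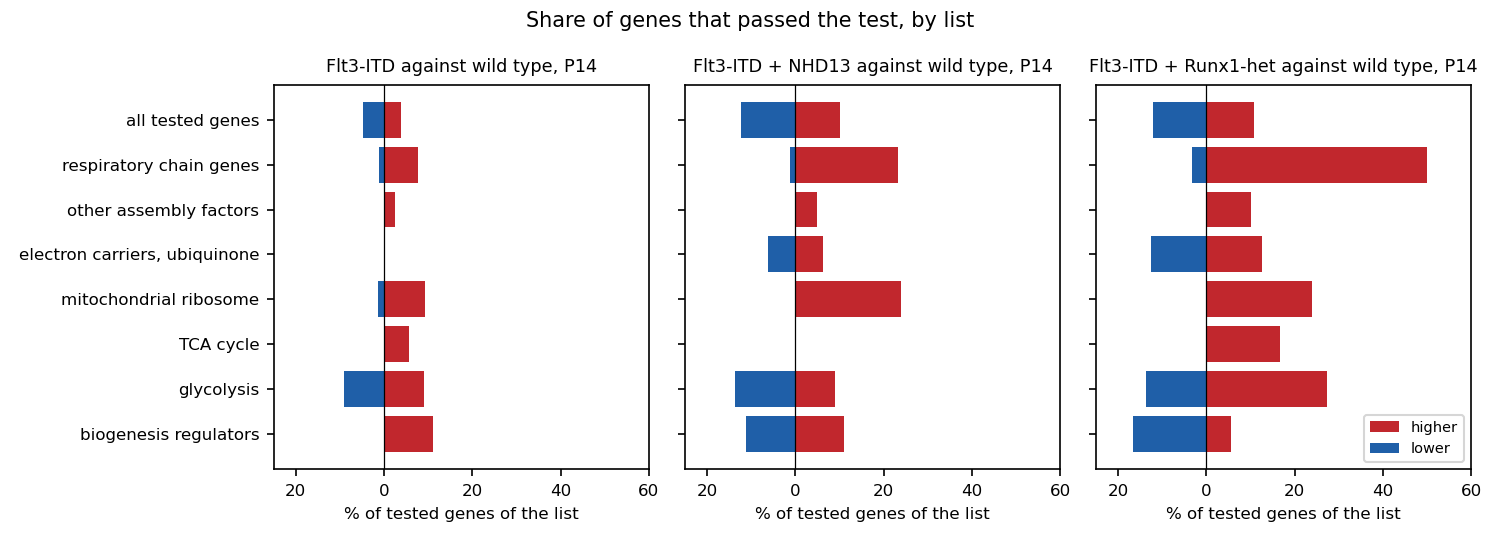
Percent of the tested genes of each list (y axis) that passed as higher (bars to the right of 0) or lower (to the left) against wild type at P14, in FLT3-ITD, FLT3-ITD/NHD13 and FLT3-ITD/Runx1-HET. The bar of the respiratory chain genes reaches 50% in FLT3-ITD/Runx1-HET, where that of all genes reaches 10.7%.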

How the data were processed

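Whole-number read counts for each Ensembl gene were deposited, made by the authors with STAR 3.0.4 and featureCounts 1.4.5 of Subread, per the submitters' processing notes. Build, annotation and strand setting are not given in the sources used here. Symbols, lengths and coordinates come from GENCODE M21 (GRCm38), which matched 40254 identifiers. For P0, 276 repeated entries were dropped and 4 columns, named as further FLT3-ITD/NHD13 libraries, that match no sample were not used. NHD13 at P0 is not analysed here.

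Each age was fitted alone, and both together for age differences, with edgeR 4.0.16 in R 4.3.3 (TMM, filterByExpr, robust quasi-likelihood F test, 1 mean per group, Benjamini-Hochberg over all 14394, 14359 or 14984 genes tested), checked on simulated counts. CPM use TMM library sizes, and log2 fold changes a prior count of 2. One gene of the early progenitor list, and the sum over that list, are not reported here. The members and all lists were chosen with earlier results of these data known. Members named are up to 6 passing per direction against wild type and up to 3 in other comparisons, by adjusted p, the most abundant of each complex, the Sdh genes and the restricted isoforms with at least 10 counts. From each other list up to 3 passing genes per comparison could be named. Alternatives were DESeq2 1.42.0, RLE or total-count scaling, no filter, only the 2 groups compared, a replicate block, a sex term, a length offset and leaving out each library. Library pairs within groups differed beyond sampling noise (chi-square per degree of freedom at least 9.11 over 54 pairs).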

Additional observations from a re-analysis of the deposited data

Results flagged for a closer look

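In 312 groups of 4 libraries of a named member or a complex sum, 19 had 1 library set apart from the other 3 by a gap above Dixon's critical value. Chance sets apart about 5.0% of groups. Where the other 3 libraries were at 0, as for Ndufa4l2 and Cox8b below, any count at all sets 1 library apart. Both of those values lie below that of 3 counts in a library, so these flags carry no weight. No cause was tested. At P14 the libraries set apart above their group were wild-type library 1 for Ndufb7 (194 CPM), wild-type library 3 for Ndufa4l2 (0.0861, the others at 0), FLT3-ITD library 3 for Ndufa1 (105), FLT3-ITD/Runx1-HET library 4 for Cox5a (158) and Runx1-HET library 1 for Sdhc (349) and for the complex II sum (2243). Those set apart below were NHD13 library 2 for Ndufb7 (209 CPM), NHD13 library 1 for Sdha (841) and the complex II sum (1969), and Runx1-HET library 3 for Cox6b2 (30.8) and Cox7b (137). At P0 those above were FLT3-ITD/NHD13 library 1 for Cox4i2 (26.7 CPM) and library 3 for Cox8b (0.0315, the others at 0). Those below were FLT3-ITD library 2 for Cox4i1 (991 CPM) and Sdhd (709), FLT3-ITD library 4 for Ndufaf6 (3.53), and wild-type library 3 for Ndufs8 (289.7), Sdhd (566) and the complex II sum (2053).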

How the results depend on the processing

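No named member's fold change changed direction under any alternative run. Counts of members called moved by over 1.5 times as follows. FLT3-ITD against wild type at P14 gave 8, but 5 without the filter, 3 with a sex term and 2 with only the 2 groups fitted, and 4 to 21 with 1 library left out. NHD13 gave 2, but 4 with a length offset, and 2 to 5 with 1 library left out (5 without wild-type library 1). FLT3-ITD/NHD13 gave 22, and 14 to 38. FLT3-ITD/NHD13 against NHD13 gave 3, but 1 without the filter, and 1 to 3. FLT3-ITD/Runx1-HET against FLT3-ITD gave 6, but 3 with a sex term, and 3 to 11. Against Runx1-HET it gave 27, and 13 to 32. FLT3-ITD/NHD13 against FLT3-ITD/Runx1-HET gave 6, but 10 with total counts, and 3 to 13. NHD13 against FLT3-ITD gave 8, but 4 without the filter and 3 with a length offset, and 2 to 13. The FLT3-ITD by Runx1-HET interaction gave 0, and 0 to 1 (1 without FLT3-ITD/Runx1-HET library 3). FLT3-ITD at P0 gave 0, but 1 with DESeq2 or only the 2 groups. FLT3-ITD/NHD13 against FLT3-ITD at P0 gave 3, but 13 with DESeq2, 5 without the filter and 1, as higher, with only the 2 groups, and 0 to 13. The age difference of FLT3-ITD gave 0, but 1 with DESeq2, and 0 to 1 (1 without P0 FLT3-ITD library 2). That of FLT3-ITD/NHD13 gave 0, but 1 with DESeq2, RLE or a length offset, and 0 to 5 (5 without P0 FLT3-ITD/NHD13 library 1). The length offset moved the members' median from 0.24 to 0.16 in FLT3-ITD/Runx1-HET and from -0.20 to -0.12 in the age difference of FLT3-ITD. The cause of these shifts was not tested.

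The replicate numbers were not taken to pair the libraries, since not every same-numbered pair had deviations correlated above 0.1: 8 of 60 did at P14 and 6 of 12 at P0. The median correlation of same-numbered and other pairs was 0.00451 and -0.00255 at P14 and 0.102 and -0.0205 at P0, and 11 of 24 and 6 of 12 libraries correlated best with one of their own number, a hint from the data and not from the design. With the replicate block, FLT3-ITD/NHD13 at P0 gave 1 call in place of 0 against wild type and 5 in place of 3 against FLT3-ITD, and its age difference 3 in place of 0. Cox7a2l in FLT3-ITD at P14 had an adjusted p of 0.0562 with the block.

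Of the named members' calls, 29 of 391 values under other settings and 52 of 392 with 1 library left out no longer passed. Only libraries of the groups compared were left out. Precision is limited by the 4 libraries per group, and at P0 by their wide spread. Members with few counts (Cox8b, Cox7a1, Ndufa4l2) are also limited by depth.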

Other observations

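Genes within 100000 bases of Cox4i2 were looked at after the Cox4i2 values were seen. Id1, which encodes an inhibitor of bHLH transcription factors, lies 16763 bases away. It measured 2.62, 7.21, 5.04 and 8.79 CPM in wild type at P14, 25.5, 24.1, 20.7 and 24.4 in FLT3-ITD, 2.07, 1.28, 1.82 and 1.46 in NHD13, 12.3, 13.1, 18 and 19.4 in FLT3-ITD/NHD13 and 32.4, 34.7, 43.7 and 42.6 in FLT3-ITD/Runx1-HET. NHD13 lay below wild type and the 3 FLT3-ITD groups above it. Id1 rose by 2.02 on the log2 scale in FLT3-ITD, 1.43 in FLT3-ITD/NHD13 and 2.71 in FLT3-ITD/Runx1-HET and fell by 1.81 in NHD13, all past edgeR's threshold. Bcl2l1, an inhibitor of apoptosis 15631 bases away, rose by 0.64 ± 0.15 in FLT3-ITD/NHD13 (adjusted p = 0.00193 in edgeR) and in no other group against wild type at P14. H13, Mcts2 and Tpx2, also in this window, did not pass against wild type in any P14 group. The deviations of Cox4i2 and Id1 from their group means correlated at 0.11 over 24 libraries at P14 and 0.36 over 12 at P0, as a description of libraries that share their depth and group.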
